A study of Mus musculus with 4 samples.

Results

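The genes described here handle arginine and make nitric oxide: the inducible nitric oxide synthase *Nos2*, the arginine transporters *Slc7a1* and *Slc7a2*, and the genes that rebuild arginine from citrulline, *Ass1* and *Asl*. These 5 were taken from 7 genes chosen by name, and they were found among the 28585 genes listed. The values come from bulk RNA sequencing of PMN-MDSCs, neutrophil-like cells that restrain T cells, which were sorted by their CD11b+Ly6C lo/-Ly6G+ surface from spleen on postnatal day 7. All pups were on the C57BL/6J background and all carried floxed *Dhps*, the gene of deoxyhypusine synthase. In the 2 libraries labelled Dhps cko (Dhps fl/fl Lysm cre) a Cre driven by the *Lysm* locus (*Lyz2*, lysozyme 2) deletes *Dhps* in myeloid cells, so neutrophils, monocytes and macrophages can all carry the deletion. The 2 libraries labelled Dhps flox (Dhps fl/fl) have no Cre. The labels do not say whether the libraries of a genotype come from separate animals or pools, so the p-values measure only the spread between these samples.

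Arginine enters myeloid cells mainly through cationic amino acid transporters and is then shared between competing enzymes. Nitric oxide synthase turns it into nitric oxide and citrulline, and other enzymes convert it to ornithine, the precursor of the polyamines from which hypusine is made. Citrulline can be turned back into arginine, and nitric oxide production by NOS2 is one of the classical means by which MDSCs suppress T cells.

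Levels are FPKM, the fragments of a gene divided by transcript length and by the mapped fragments of the library, so genes may be compared within a library. The steps between low values put the depth at about 29600000 to 31900000 mapped fragments per library, from which approximate fragment numbers per gene were computed. When only genes of 200 to 600 bases were used, Dhps flox 1 came out at 60000000, the upper limit of the depths searched, instead of 30200000. These short genes thus gave no usable depth for this library, so its fragment numbers are the least certain. *Dhps* was at 2.38 and 2.59 FPKM in Dhps cko 1 and 2 and at 3.57 and 3.11 FPKM in Dhps flox 1 and 2 (log2 fold change -0.41, standard error 0.13, unadjusted p = 0.026, adjusted p = 0.63 from limma). It was lower in both Dhps cko libraries, and its transcripts were still detected in every library. *Lyz2*, the locus that carries the Cre, was at 2245.27 and 2379.85 FPKM in Dhps cko and at 6873.61 and 6544.27 FPKM in Dhps flox (log2 fold change -1.54, standard error 0.08, adjusted p = 0.083 from limma). The neutrophil granule gene *Ngp* was at 26339.45 to 27901.98 FPKM, so neutrophil transcripts were abundant in every library. *Ly6g*, the sorting marker, was at 222.16 and 241.58 FPKM in Dhps cko and at 194.95 and 184.8 FPKM in Dhps flox (log2 fold change 0.29, standard error 0.07, unadjusted p = 0.008, adjusted p = 0.53 from limma). In bulk samples, fewer cells of a type and less RNA per cell cannot be told apart.

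*Asl* was the highest of the 5 genes in every library and *Slc7a1* followed, whereas *Slc7a2*, *Ass1* and *Nos2* stayed under 1 FPKM in all 4 libraries. *Nos2*, often used to define MDSCs, was lowest on average, at about 8 to 57 fragments per library. None of the 5 genes differed between genotypes with an adjusted p under 0.05, a threshold passed by 0.00557% of the 17948 genes tested (1 gene, the gene model *Gm20716*, named after its values were seen). With an unadjusted p under 0.05 there were also 0 of the 5 genes, where 7.0% of all genes had such a p in limma. The genotypes did not overlap for 3 of the 5 genes, where 36.0% of all genes showed no overlap. *Ass1* and *Asl* had the higher values in Dhps cko (20.0% of all genes), and *Nos2* had the lower values (16.0% of all genes). Their median log2 fold change was 0.04, beside 0.01 over all genes tested. All 5 passed the filter of a mean of at least 0.1 FPKM, but *Nos2*, with means of 0.08 FPKM in Dhps cko and 0.32 FPKM in Dhps flox, passed only through the genotype where it was high.

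**Figure D1:**
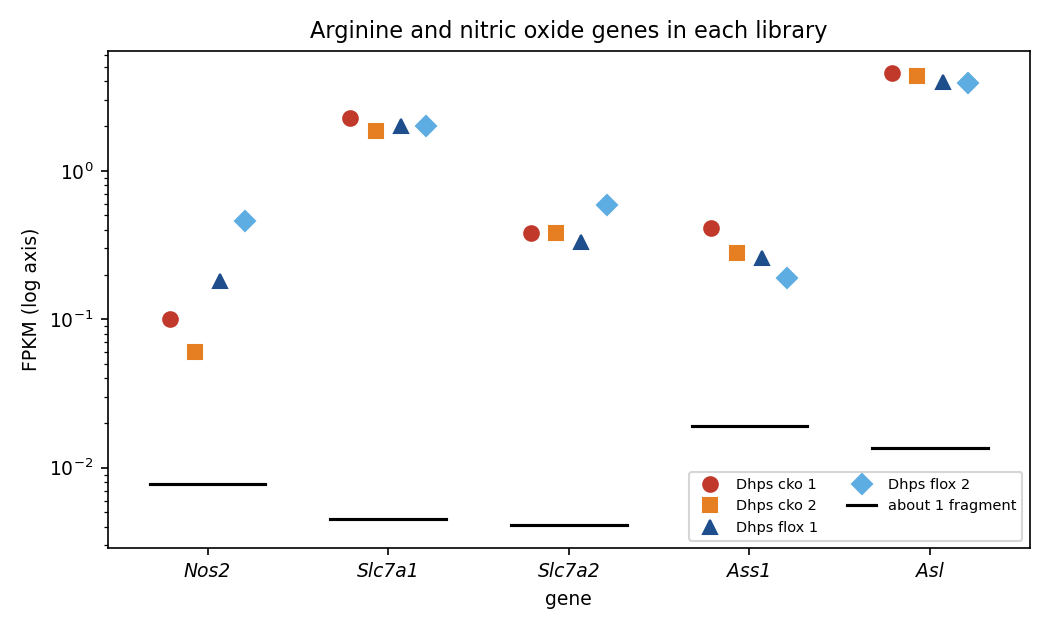
FPKM (log axis) of the 5 arginine and nitric oxide genes in each of the 4 libraries, 1 point per library, with a black line at the value of about 1 fragment for that gene. *Asl* lies between 3.92 and 4.53 FPKM, and *Nos2* lies between 0.06 and 0.46 FPKM with both Dhps cko points under both Dhps flox points.

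Neighbours in this order were separate at the top and not at the bottom. *Asl* exceeded *Slc7a1* by a ratio of means of 2.07, and *Slc7a1* exceeded *Slc7a2* by 4.82, with no overlap over the 4 libraries in either pair. The ranges of *Slc7a2* and *Ass1* overlapped, as did those of *Ass1* and *Nos2*, and the order within these pairs differed between libraries. *Slc7a2* was above *Nos2* in each of the 4 libraries.

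*Nos2* (ENSMUSG00000020826; chromosome 11, 78920787 to 78960254, plus strand), which makes nitric oxide from arginine in activated myeloid cells, was at 0.10 and 0.06 FPKM in Dhps cko 1 and 2. In Dhps flox 1 and 2 it was at 0.18 and 0.46 FPKM. The Dhps cko libraries held the lower values, about 21 fragments in all against about 80, and Dhps flox 2 alone held about 57 of these. The Dhps cko mean was 25.0% of the Dhps flox mean. The log2 fold change was -1.15 (standard error 0.49, 95% interval -2.41 to 0.11, adjusted p = 0.75 from limma), the largest in size of the 5 genes and not past the threshold. In FPKM, the Dhps flox libraries differed from each other more than Dhps flox 1 differed from either Dhps cko library. As plain ratios this did not hold for Dhps cko 2. Without Dhps flox 2 the log2 fold change was -0.65, and without Dhps flox 1 it was -1.65 (unadjusted p = 0.022, adjusted p = 0.67 from limma). It ran from -0.28 with a pseudocount of 1 to -1.77 with a pseudocount of 0.01.

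The uptake genes showed overlapping genotypes. *Slc7a1* (ENSMUSG00000041313; chromosome 5, 148327410 to 148399904, minus strand), which encodes the widely expressed arginine transporter CAT1, was at 2.27 and 1.85 FPKM in Dhps cko and at 1.99 FPKM in both Dhps flox libraries. The Dhps flox values lay between the Dhps cko values, and the log2 fold change was 0.04 (standard error 0.16, 95% interval -0.36 to 0.44, adjusted p = 0.98 from limma), or -0.10 if Dhps cko 1 was left out. *Slc7a2* (ENSMUSG00000031596; chromosome 8, 40862396 to 40922308, plus strand), which encodes the inducible transporter CAT2 of activated macrophages, was at 0.38 FPKM in both Dhps cko libraries and at 0.33 and 0.59 FPKM in Dhps flox 1 and 2. Dhps flox 2, which had the highest *Nos2*, also had the highest *Slc7a2*. The log2 fold change of *Slc7a2* was -0.18 (standard error 0.34, 95% interval -1.06 to 0.69, adjusted p = 0.95 from limma), -0.52 without Dhps flox 1 and 0.16 without Dhps flox 2. Of its exon bases, 7.0% lie under a gene model on the opposite strand, and whether strand was used in the quantification is not given in the sources used here. Of the 50-base windows along the transcripts of *Slc7a1* and *Slc7a2*, 0.2% and 1.8% also occur in another gene, so nearly all of each transcript is its own.

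The resynthesis genes act in sequence, argininosuccinate synthase (*Ass1*) joining citrulline to aspartate and argininosuccinate lyase (*Asl*) releasing arginine. *Asl* (ENSMUSG00000025533; chromosome 5, 130011258 to 130029247, minus strand) was at 4.53 and 4.36 FPKM in Dhps cko and at 3.99 and 3.92 FPKM in Dhps flox, about 280 to 349 fragments per library. Replicates lay close together and the genotypes did not overlap, with Dhps cko at 112.4% of Dhps flox. The log2 fold change was 0.16 (standard error 0.09, 95% interval -0.08 to 0.41, adjusted p = 0.78 from limma), with a range of 0.14 to 0.19 over the alternatives run.

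*Ass1* (ENSMUSG00000076441; chromosome 2, 31470207 to 31520672, plus strand) was listed lower than *Asl* in every library. It was at 0.41 and 0.28 FPKM in Dhps cko and at 0.26 and 0.19 FPKM in Dhps flox, about 10 to 22 fragments per library. The Dhps cko values were the higher ones, 0.28 and 0.26 FPKM being the nearest values across the genotypes. The log2 fold change was 0.45 (standard error 0.35, 95% interval -0.45 to 1.34, adjusted p = 0.82 from limma), or 0.23 if Dhps cko 1, 0.66 if Dhps cko 2, 0.60 if Dhps flox 1 and 0.29 if Dhps flox 2 was left out. With a pseudocount of 1 it was 0.13.

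The value of *Ass1* is uncertain because the genome holds a near-identical copy. The processed pseudogene *Gm5424* (chromosome 10, 62071123 to 62072362, plus strand) differs from *Ass1* at 6 of the 1236 coding bases, an identity of 99.5%. Of the 50-base windows along the *Ass1* transcript, 55.3% also occur in *Gm5424*, so reads that lie within these windows match both genes. Within exon 7 of *Ass1*, chr2:31488578-31488637, 60 bases differ from the copy at chr10:62071543-62071602 by the 1 base in capitals (GENCODE M21, GRCm38), and they are shown to make the likeness visible:
Ass1: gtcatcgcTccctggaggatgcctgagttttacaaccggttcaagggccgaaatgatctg
Gm5424: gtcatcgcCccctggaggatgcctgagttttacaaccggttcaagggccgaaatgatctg
*Gm5424* was listed above *Ass1* in every library, at 0.78 and 0.98 FPKM in Dhps cko and at 0.64 and 1.05 FPKM in Dhps flox, with overlapping genotypes. When the fragments of both were combined per kilobase of *Ass1* transcript, a step chosen after seeing the data, the values were 0.98 and 0.997 in Dhps cko and 0.728 and 0.958 in Dhps flox. The combined log2 fold change was 0.22 (standard error 0.22, 95% interval -0.34 to 0.78, adjusted p = 0.87 from limma). With the copy included, the sum stayed below the *Asl* value of the same library.

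**Figure D2:**
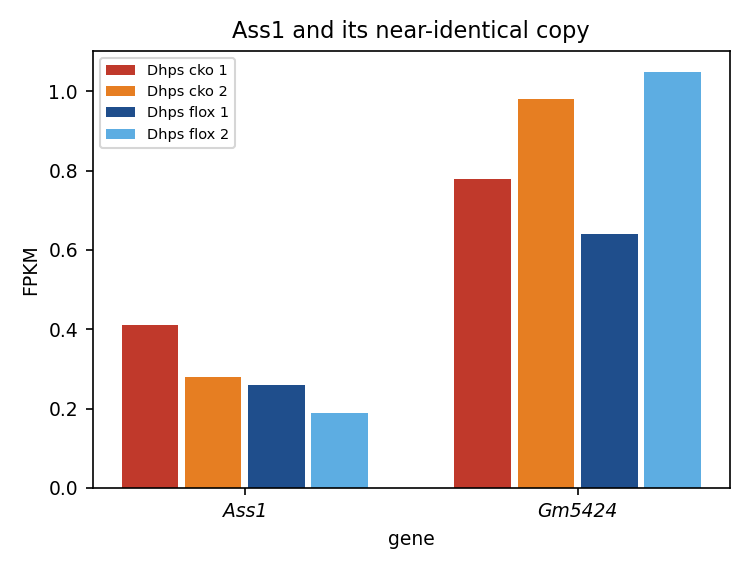
FPKM in each library of *Ass1* and its near-identical copy *Gm5424*, 1 bar per library. *Gm5424* is higher than *Ass1* in all 4 libraries, and its genotypes overlap.

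**Figure D3:**
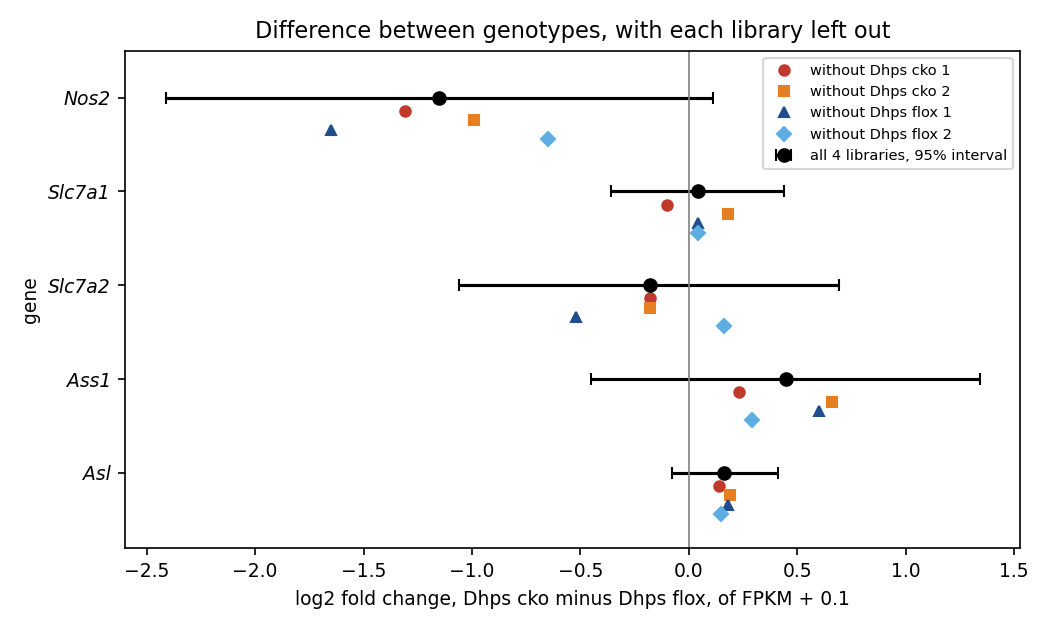
Log2 fold change of FPKM + 0.1 (Dhps cko minus Dhps flox) of each gene over all 4 libraries (black points, bars 95% intervals from limma) and with each library left out (coloured points). All 5 intervals include 0, and points of *Slc7a1* and *Slc7a2* lie on both sides of 0.

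The wider pathway was described with 7 lists, of which 77 listed genes are reported here, 67 of them past the filter. None had an adjusted p under 0.05. Of the 62 tested genes that are not among the 5 above, 3 had an unadjusted p under 0.05 in limma, all with higher values in Dhps cko (4.72% of all genes), and 0 of 62 had one with lower values (2.28% of all genes). Over these 62 genes, 14 did not overlap with higher values in Dhps cko (20.0% of all genes) and 1 with lower values (16.0% of all genes), so the first count is near its background. Their median log2 fold change was 0.04.

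Among enzymes that use arginine or its product ornithine and their relatives, 4 of the genes reported were tested, with a median log2 fold change of -0.16. Abundant genes were *Gatm*, the first enzyme of creatine synthesis, at 12.31 and 11.38 FPKM in Dhps cko and 11.64 and 11.43 FPKM in Dhps flox, and *Oat*, which degrades ornithine. *Azin2*, which encodes antizyme inhibitor 2, a regulator of polyamine synthesis, was at 0.52 and 0.23 FPKM in Dhps cko and at 0.48 FPKM in both Dhps flox libraries. *Oat* was at 10.09 and 10.78 FPKM in Dhps cko and at 8.96 and 9.37 FPKM in Dhps flox, without overlap (log2 fold change 0.18, standard error 0.08, adjusted p = 0.74 from limma). The other nitric oxide synthases were under the filter, *Nos1* at up to 0.02 FPKM and *Nos3* at up to 0.05 FPKM, so *Nos2* was the highest of the 3 synthases in every library even at its low level.

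Of the 8 reported resynthesis and urea cycle genes tested, *Cps1*, which makes carbamoyl phosphate for the urea cycle, had the smallest p. It was at 0.57 and 0.56 FPKM in Dhps cko and at 0.26 and 0.14 FPKM in Dhps flox (log2 fold change 1.18, standard error 0.34, unadjusted p = 0.017, adjusted p = 0.59 from limma). *Aldh4a1* and *Prodh*, enzymes of proline breakdown, were close to *Asl* in level. *Aldh4a1* was at 5.15 and 5.12 FPKM in Dhps cko and at 4.58 and 4.66 FPKM in Dhps flox, without overlap. *Prodh* was at 3.51 to 4.6 FPKM with overlapping genotypes. Of the 8 genes, 5 did not overlap, all with higher values in Dhps cko, beside 20.0% of all genes. *Ass1* and *Asl* were among them, and the median log2 fold change of the list was 0.15.

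Of the 10 transporters tested, *Slc7a7*, the y+LAT1 subunit that exports arginine in exchange for neutral amino acids, was at 4.6 and 4.46 FPKM in Dhps cko and at 3.55 and 3.69 FPKM in Dhps flox (log2 fold change 0.32, standard error 0.10, unadjusted p = 0.022, adjusted p = 0.63 from limma). Its partner chain *Slc3a2* was at 11.94 to 12.45 FPKM, and the lysosomal arginine sensor *Slc38a9* at 2.45 to 2.57 FPKM, both with overlapping genotypes. *Slc7a3*, the remaining CAT transporter, reached at most 0.05 FPKM.

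Of the 9 tested genes for the cofactor and turnover of nitric oxide synthase, none had an unadjusted p under 0.05 and the median log2 fold change was 0.04. The most abundant were *Nosip*, *Pts*, which acts in tetrahydrobiopterin synthesis, and *Adh5*, which removes nitrosothiols, at 9.39 to 10.75, 8.51 to 9.77 and 4.89 to 5.71 FPKM. *Gchfr*, the regulator of the first enzyme of tetrahydrobiopterin synthesis, was listed at 0 in all 4 libraries.

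The most abundant transcript of the protein arginine modification list was *Padi4*, the deiminase of neutrophil extracellular traps, at 118.88 and 123.74 FPKM in Dhps cko and 117.08 and 125.68 FPKM in Dhps flox. This exceeded each of the 5 genes above in every library. *Padi2*, a related deiminase, was at 1.40 and 1.23 FPKM in Dhps cko and at 0.73 and 0.90 FPKM in Dhps flox (log2 fold change 0.63, standard error 0.20, unadjusted p = 0.026, adjusted p = 0.63 from limma). The methyltransferases *Prmt1* and *Prmt9* were at 5.08 to 6.02 and 4.03 to 4.74 FPKM with overlapping genotypes.

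Among 16 reported receptors and transcription factors upstream of *Nos2* or of other arginine-using enzymes, the median log2 fold change was 0.06 and 5 did not overlap, all with higher values in Dhps cko, beside 36.0% of all genes in either direction and 20.0% in this one. *Stat6*, which transmits interleukin 4 signals, was at 58.55 to 65.61 FPKM, and the GM-CSF receptor chains *Csf2ra* and *Csf2rb* were at 100.29 to 117.24 and 57.1 to 62.83 FPKM, all with overlapping genotypes. The median of the 10 arginine sensing genes was -0.03, and the most abundant were *Rragc*, *Rraga* and *Mtor* at 19.19 to 21.29, 12.18 to 14.89 and 4.29 to 5.54 FPKM. Without Dhps cko 2, none of the genes on the 7 lists had an unadjusted p under 0.05, and without Dhps flox 2 there were 6 instead of 3. Over all genes the number went the same way, from 1257 of 17948 to 719 of 17980 without Dhps cko 2 and to 1609 of 17994 without Dhps flox 2.

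**Figure D4:**
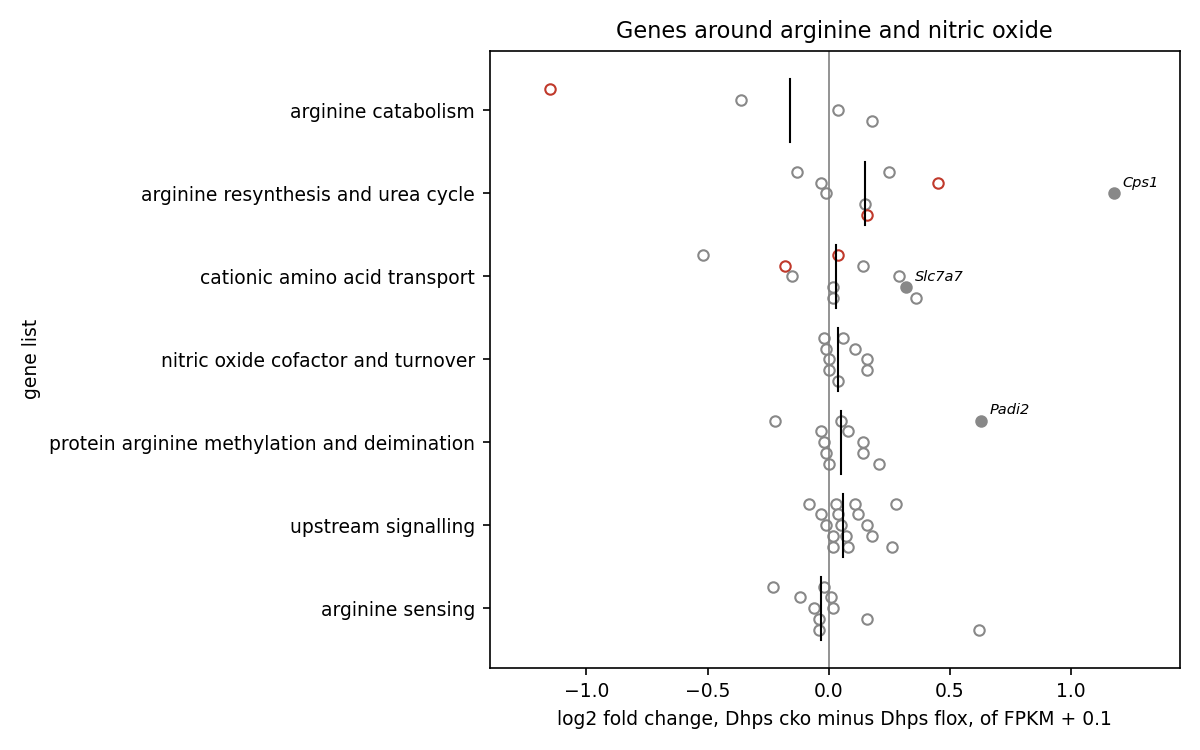
Log2 fold change of FPKM + 0.1 (Dhps cko minus Dhps flox) of each tested gene of 7 lists, 1 point per gene, with the list median as a black line; upstream signalling stands for the receptors and transcription factors. Red points are the 5 arginine and nitric oxide genes, filled points have an unadjusted p under 0.05 (3 of 67 genes, all to the right of 0), and list medians run from -0.16 to 0.15.

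Markers of other cells, which the CD11b+Ly6C lo/-Ly6G+ sort would largely remove, were detected in every library, and none differed with an adjusted p under 0.05. The genotypes did not overlap, with higher values in Dhps cko, for 8 of 12 monocyte and macrophage markers, 4 of 5 B cell, 3 of 5 T cell, 3 of 5 eosinophil, 1 of 9 erythroid and 2 of 4 tested endothelial and stromal markers, beside 20.0% of all genes. Of the 11 neutrophil markers, 4 did not overlap in this direction and 9 had a log2 fold change above 0. The eosinophil count includes *Epx*, which passed the filter only through Dhps cko (means 0.205 FPKM in Dhps cko and 0.08 FPKM in Dhps flox). The summed level of 12 monocyte and macrophage markers was 365.31 and 360.41 FPKM in Dhps cko and 299.89 and 298.41 FPKM in Dhps flox. All 12 had a log2 fold change above 0, with a median of 0.29, and 5 of the 12 had an unadjusted p under 0.05 in this direction, beside 4.72% of all genes. *Ly6c2* was the most abundant, at 192.22 and 183.75 FPKM in Dhps cko and 157.95 and 160.82 FPKM in Dhps flox, and made up the largest part of the sums of this list. The sort kept cells with low Ly6C, so *Ly6c2* transcripts need not come from other cells. The 5 B cell markers, led by *Cd79b*, summed to 22.24 and 22.5 FPKM in Dhps cko and 13.28 and 17.39 FPKM in Dhps flox, their log2 fold changes having a median of 0.66 and 3 of 5 an unadjusted p under 0.05. The 5 T cell markers, led by *Trbc2*, summed to 14.12 and 11.67 against 9.03 and 6.12 FPKM, with a median of 0.67 and 2 of 5 at such a p. The 5 eosinophil markers, led by *Siglecf*, summed to 12.06 and 10.5 against 8.34 and 8.78 FPKM. The values of *Siglecf* overlapped, and *Prg2* had the largest difference of the eosinophil list, at 3.95 and 1.35 FPKM in Dhps cko and 0.98 and 0.5 FPKM in Dhps flox. Sums of the 11 neutrophil markers (72118.99 to 79004.32 FPKM), the 9 erythroid markers led by *Hbb-bs* (621.25 to 929.58 FPKM) and the 6 endothelial and stromal markers led by *Col1a1* (17.25 to 25.17 FPKM) were also computed. The endothelial and stromal sums were at 135.1% and 110.2% of the Dhps flox mean in Dhps cko and at 92.6% and 107.4% in Dhps flox. The neutrophil sums were at 103.1% and 106.2% in Dhps cko and at 103.1% and 96.9% in Dhps flox. The erythroid sums overlapped between genotypes. No marker was at 0 in all 4 libraries. The part of these cells in the values of *Asl*, *Ass1*, *Oat*, *Cps1*, *Aldh4a1*, *Slc7a7* and *Padi2*, which were also higher in both Dhps cko libraries, was not tested. Nor was it tested for *Nos2*, which was lower in both Dhps cko libraries.

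**Figure D5:**
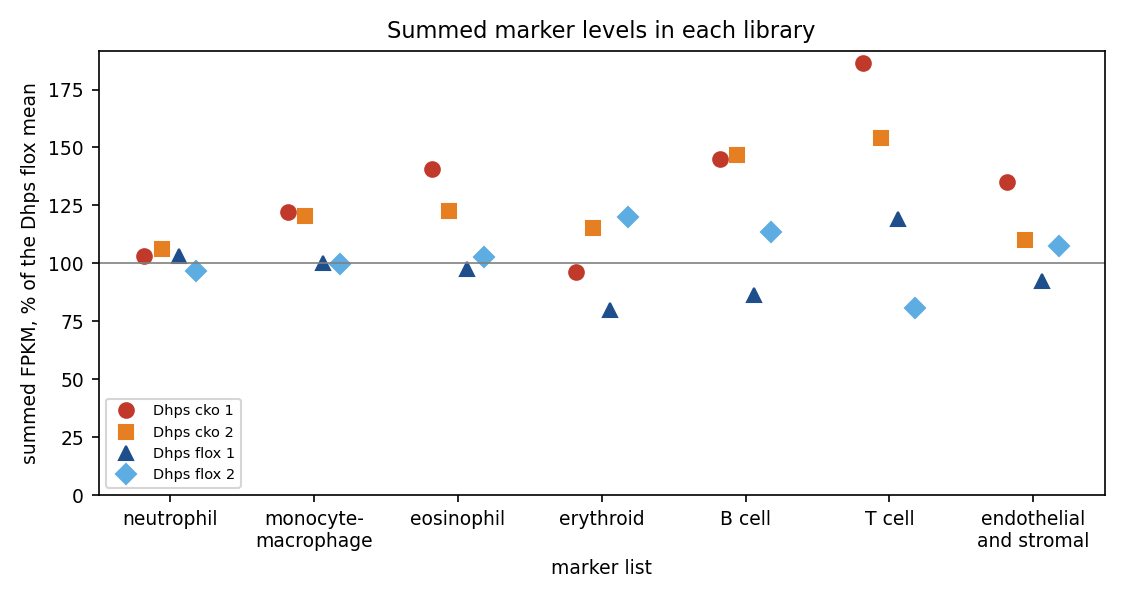
Summed FPKM of 7 marker lists in each library, as a percentage of the Dhps flox mean of that list, 1 point per library. The monocyte and macrophage sums are at 122.1% and 120.5% in Dhps cko and at 100.2% and 99.8% in Dhps flox, and the erythroid sums overlap.

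The gene whose profile over the 4 libraries was most like that of *Slc7a1* was *Cpsf4*, at 9.77 and 7.99 FPKM in Dhps cko and 8.7 and 8.72 FPKM in Dhps flox. The root mean square distance between the centred log2 profiles was 0.0104, and 177 of the 10622 genes compared lay within 0.05. For *Asl* it was *Cpsf6* (distance 0.008, 508 genes within 0.05), at 9.55 and 9.3 FPKM in Dhps cko and 8.47 and 8.4 FPKM in Dhps flox. Both encode mRNA cleavage factors. With 4 libraries many genes share a profile by this measure, so these matches are descriptions only.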

How the data were processed

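RNA from sorted PMN-MDSCs was sequenced in 4 libraries, 2 per genotype. The authors trimmed reads with Cutadapt, aligned them to mm10 with HISAT2 and quantified genes with StringTie and ballgown, and the deposited values are FPKM per gene, rounded to 2 decimals. The annotation and strand setting are not given in the sources used here. FPKM hold no read counts, and whole reads could not be recovered from them. A value of 0.01 FPKM is the smallest above 0.

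The genotype difference was fitted on log2(FPKM + 0.1) by limma 3.58.1 under R 4.3.3, with lmFit followed by eBayes (trend in the variance allowed). Genes averaging under 0.1 FPKM were left out. Tests were two-sided, with Benjamini-Hochberg adjustment over all genes tested and a threshold of 0.05. Fold changes on this scale understate those of low genes. The comparison was tested on simulated data in which only genes averaging about 1 FPKM or more were changed. That run does not cover changes in *Nos2*, *Ass1* or *Slc7a2*, and its outcome is not reported here. Coordinates and sequences are from GENCODE M21 (GRCm38), which holds 28511 of the 28585 gene identifiers. Approximate fragments use the longest coding transcript and a depth estimated from the steps between low values (37.4% to 39.5% lay within 0.15 of a whole step, where chance gives 30%). No error was computed for them.

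The 7 genes and all lists were chosen with earlier results of these data known, and 2 of the 7 genes and 4 genes of the lists are not reported here. Named genes are the other 5 genes, *Dhps* and *Lyz2*, the 3 most abundant reported genes of each pathway list and those with an unadjusted p under 0.05, the most abundant marker of each cell type, and the nearest profile of those of the 5 genes that averaged 1 FPKM or more. *Nos1*, *Nos3*, *Slc7a3*, *Gchfr*, *Ly6g*, *Prg2*, *Epx* and *Gm5424* were added outside this rule. The alternatives varied the pseudocount, the filter, the scaling and the variance model, added a replicate block, or left out a library. Other steps ran in Python 3.11.15 (scipy 1.17.1, pandas 2.3.3, matplotlib 3.10.9).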

Additional observations from a re-analysis of the deposited data

How the results depend on the processing

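Of 63 values of the 5 genes under the alternatives, none passed the adjusted threshold, 61 kept their direction and 2 reversed. With a library left out, *Slc7a1* ran from -0.10 (without Dhps cko 1) to 0.18, and *Slc7a2* from -0.52 to 0.16 (without Dhps flox 2). The number of genes called over all genes was 1, and it was 0 with a pseudocount of 0.01 or without the filter, 4 with a mean of at least 1 FPKM, 2 with TPM scaling or quantile normalization, and 0 whichever library was left out. Their numbers with an unadjusted p under 0.05 were 1216 with the pseudocount of 0.01, 1675 without the filter and 719 to 1609 with a library left out. Of the 5 genes, the number with an unadjusted p under 0.05 was 0, and 0 to 1 with a library left out (*Nos2* without Dhps flox 1). The number on the pathway lists was 3, and 0 to 6 with a library left out. The cause of these shifts was not tested.

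With a replicate block, limma called 0 genes over all genes (1082 at an unadjusted p under 0.05), 0 of the 5 genes had an unadjusted p under 0.05, and 2 genes of the pathway lists did. The replicate numbers of the genotypes are no evidence of pairing: differences between replicates 1 and 2 had a Pearson r of -0.06 between the genotypes across 10629 genes, which are not independent.

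*Slc7a2*, *Ass1* and *Nos2* have no value with the filter of 1 FPKM. Depth limits these 3 genes most, and with 1 library left in a genotype that library is assumed to vary like the other genotype.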
